A study of Mus musculus with 13 samples.

Results

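The genes described here act on procollagen between its folding in the endoplasmic reticulum and its assembly into fibrils. They are the chaperone gene Serpinh1, the C-proteinase genes Bmp1 and Tll1, and the C-proteinase enhancer genes Pcolce and Pcolce2. They were chosen by symbol from the annotation of the array, and all 5 were found among 19537 genes, each with 1 probe set. The probe sets were 10565794 for Serpinh1, 10421361 for Bmp1, 10578880 for Tll1, 10534862 for Pcolce and 10587880 for Pcolce2. RNA from the livers of naive C57BL/6 mice aged 6 to 10 weeks was hybridised to 13 Affymetrix mouse gene arrays. Hepatocytes, Kupffer cells (the resident macrophages) and liver sinusoidal endothelial cells (LSEC) were freshly sorted and had 3 arrays each. Hepatic stellate cells (HSC), the pericytes of the sinusoid that can become matrix-producing myofibroblasts, were cultured in medium with 10% fetal bovine serum and had 2 arrays after 1 day and a single array each after 7 and 14 days. No array held uncultured HSC, so in every comparison of HSC with another population cell type and culture cannot be told apart. Only the titles call the arrays biological replicates, so the p-values measure the spread between these arrays, and with 2 or 3 arrays a group the precision is limited.

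Fibrillar collagens are made as procollagens with propeptides at both ends. HSP47, the product of Serpinh1, binds the folded triple helix in the endoplasmic reticulum and leaves it on the way through the Golgi. Outside or on the way out of the cell, the tolloid metalloproteinases, among them BMP1 and TLL1, remove the C-propeptide, the step that makes the molecule insoluble enough to form fibrils. The glycoproteins encoded by Pcolce and Pcolce2 have no protease activity of their own and speed up this cleavage by binding procollagen. In liver, stellate cells and other fibroblast-like cells are the main source of fibrillar collagen.

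Values are probe-set intensities on a linear scale, and errors are SD. The median over all arrays and probe sets was 224.5, and array medians ran from 216.5 to 232.9. Probe sets differ in brightness, so levels were compared between samples and never between genes. A gene was tested if it read above 224.5 on at least 2 arrays of the fit. A call needed an adjusted p under 0.05 together with a difference in log2(intensity + 83) of at least 1, where 83 is the pooled 20th percentile. Bmp1, Pcolce and Serpinh1 read above the median on all 13 arrays. Pcolce2 did so on 7 arrays and Tll1 on 3, so these genes entered the fits through the groups in which they were high. Tll1, above the median on 1 of the 11 arrays of the 4 populations, was not tested between populations.

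The labelled cell types carried their own markers. Summed over 10 markers, the hepatocyte arrays read 124873 to 129335. The sum was 20064 and 11149 on the 1-day HSC arrays, which is 15.9% and 8.82% of the hepatocyte mean, and 1203 and 1198 on the 7-day and 14-day arrays. Alb made up 8855 and 6285 of the 1-day sums. On both 1-day arrays 8 of the 10 markers read above the pooled median, but Cps1 read 144.6 and 146.4 against 7735 to 8681 in hepatocytes. For 10 LSEC markers, the LSEC arrays read 68284, 63356 and 47638, and the 1-day HSC arrays 11820 and 10952. LSEC markers fell to 1943 and 2139 on the 7-day and 14-day arrays. Cdh5 made up 6552 and 5427 of the 1-day HSC sums. On the Kupffer cell arrays the LSEC marker sum was 12629 to 14933, of which Cdh5 made up 9141 to 10040. Of 9 Kupffer cell markers, the sum was 77780 to 80478 on Kupffer cell arrays and 3063 to 5669 on HSC arrays. Of 10 stellate cell markers, it was 23884 to 26925 on the 4 HSC arrays and 1667 to 3929 elsewhere. That sum was held up by Dcn, at 11400 to 12320 on the HSC arrays, while 5 of its genes read lower at days 7 and 14 than on both 1-day arrays and 4 read higher. Among the former, Reln, which encodes reelin, read 4331 and 4597 at day 1, 2270 at day 7 and 276.6 at day 14, and Hgf, the hepatocyte growth factor gene, read 1196 and 1479, then 704.7 and 202. For the counts of stellate cell genes lower and higher at days 7 and 14, the share over all genes was not determined. Fewer cells of a type and less RNA per cell cannot be told apart in such bulk samples.

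Promoter sequence was available for Serpinh1, Pcolce, Tll1 and Pcolce2. It is shown because Pcolce and Tll1 varied most alike among these genes while Pcolce2 followed another pattern, as the values further on show. Each line gives the 250 bases before the annotated start from RefSeq, build GRCm38.p6, read 5′ to 3′, with the motifs found in capitals.
Serpinh1 (chr7:99353240-99353489, minus strand): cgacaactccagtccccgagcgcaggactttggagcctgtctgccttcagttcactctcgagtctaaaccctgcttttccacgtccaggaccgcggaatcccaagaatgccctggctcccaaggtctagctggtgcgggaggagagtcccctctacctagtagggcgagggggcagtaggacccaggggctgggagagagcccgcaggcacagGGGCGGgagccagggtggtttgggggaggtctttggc
Pcolce (chr5:137611405-137611654, minus strand): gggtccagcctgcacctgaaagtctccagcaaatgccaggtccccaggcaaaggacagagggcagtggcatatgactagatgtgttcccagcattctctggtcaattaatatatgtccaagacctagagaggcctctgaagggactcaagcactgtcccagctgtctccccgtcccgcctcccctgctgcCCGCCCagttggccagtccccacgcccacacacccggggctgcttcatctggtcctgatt
Tll1 (chr8:64206009-64206258, minus strand): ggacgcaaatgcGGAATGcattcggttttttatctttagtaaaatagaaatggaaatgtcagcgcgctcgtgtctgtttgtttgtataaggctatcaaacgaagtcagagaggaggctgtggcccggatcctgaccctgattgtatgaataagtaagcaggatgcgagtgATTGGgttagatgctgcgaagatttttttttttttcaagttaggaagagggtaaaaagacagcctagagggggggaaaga
Pcolce2 (chr9:95637378-95637627, plus strand): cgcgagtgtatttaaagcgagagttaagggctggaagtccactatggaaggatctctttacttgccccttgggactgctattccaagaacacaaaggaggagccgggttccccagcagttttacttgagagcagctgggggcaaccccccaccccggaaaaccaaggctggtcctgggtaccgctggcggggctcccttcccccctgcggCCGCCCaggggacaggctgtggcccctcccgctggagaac
Both strands were searched for the TATA box TATAAA, the GC box GGGCGG, the CCAAT box CCAAT, the TEAD core GGAATG, the AP-1 element TGANTCA, the heat shock element core GAANNTTC and the CArG box, whose letters can overlap those of the TATA box. No match overlapped another. Serpinh1, Pcolce and Pcolce2 each held 1 GC box, at 37, 60 and 40 bases before the start, a motif present in 32.7% of the 32851 promoter windows of this length. Tll1 had no GC box but held 1 CCAAT box, present in 33.8% of windows, and 1 TEAD core, present in 12.6%. The other motifs, found in 12.4% (TATAAA), 6.75% (TGANTCA), 6.69% (GAANNTTC) and 1.47% (CArG) of windows, were not among these letters. The share of G and C was 63.6% for Serpinh1, 61.2% for Pcolce2 and 58.8% for Pcolce, above the median of 52.4% over all windows, and 43.2% for Tll1, below it. These matches describe the letters only.

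**Figure D1:**
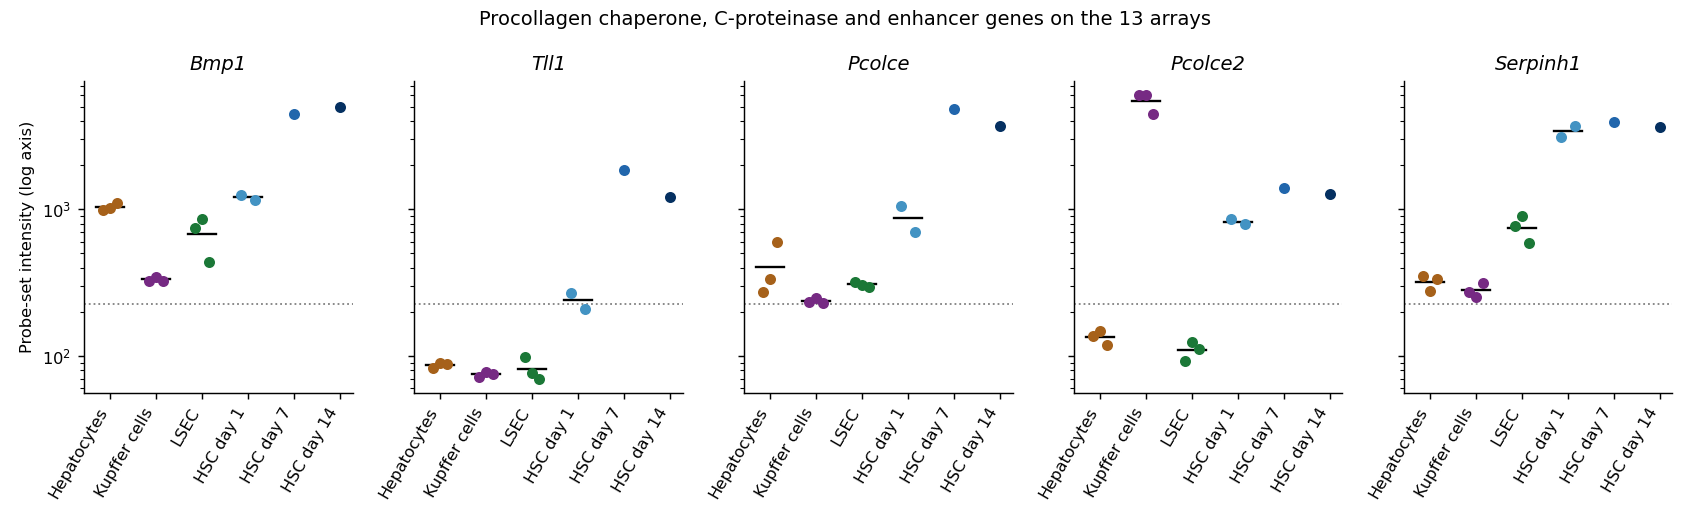
Probe-set intensity (log axis) of the 5 genes on the 13 arrays, 1 point per array, with a bar at the mean of groups with more than 1 array and a dotted line at the pooled median of 224.5. Pcolce2 is highest on the Kupffer cell arrays, Serpinh1 is already high on the 1-day HSC arrays, and Bmp1, Tll1 and Pcolce are highest on the 7-day and 14-day HSC arrays.

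Serpinh1 was already high in HSC after 1 day, though not alone among the 5 genes. Pcolce and Pcolce2 were also called higher in 1-day HSC than in LSEC and hepatocytes, as shown further on. Serpinh1 read 3108 and 3730 on the 1-day HSC arrays, 3944 at day 7 and 3624 at day 14. On the LSEC arrays it read 764.6, 894.3 and 586.1, on the hepatocyte arrays 350.2, 277.4 and 334.5, and on the Kupffer cell arrays 271.3, 252.9 and 314.2. Every HSC array therefore lay above every array of the other populations, and the day 7 and day 14 values lay close to or within the range of the day 1 pair. The 1-day HSC mean of 3419 ± 440 (n = 2) was 4.57 times the LSEC mean of 748.4 ± 155 (n = 3), 10.7 times the hepatocyte mean of 320.7 ± 38.3 (n = 3) and 12.2 times the Kupffer cell mean of 279.5 ± 31.5 (n = 3). In limma, Serpinh1 was higher in 1-day HSC than in LSEC by 2.09 on the log2 scale (SE 0.151, adjusted p = 3.8e-07), than in hepatocytes by 3.12 (adjusted p = 3.1e-09) and than in Kupffer cells by 3.27 (adjusted p = 1.7e-09).

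LSEC held the second level of Serpinh1. The difference of hepatocytes from LSEC was -1.03 on the log2 scale (adjusted p = 2.2e-05) and that of Kupffer cells was -1.18 (adjusted p = 7.5e-06), both past the minimum difference of 1. The first did not reach that minimum without hepatocyte replicate 2 (-0.95), without LSEC replicate 2 (-0.90), after quantile normalization (-0.92) or with the pooled median as pseudocount (-0.83), and with that pseudocount the second was -0.94. Hepatocytes and Kupffer cells, at the low end, differed by 0.15 (95% interval -0.14 to 0.45, adjusted p = 0.33). Between 1 day and longer culture the Serpinh1 difference was 0.15 (SE 0.163, 95% interval -0.21 to 0.50, adjusted p = 0.51), so a rise or fall of 1 on the log2 scale lies outside the interval.

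Bmp1, which encodes the founding C-proteinase, was read in all populations and rose with culture. It read 1260 and 1160 on the 1-day HSC arrays and 995.8, 1022 and 1112 on the hepatocyte arrays. LSEC read 745.9, 854.3 and 436.3, and Kupffer cells 325.8, 347.1 and 325.4. The 1-day HSC arrays lay above all arrays of the other populations, but by little over hepatocytes. After 7 days Bmp1 read 4466 and after 14 days 4962, 3.69 and 4.1 times the 1-day mean of 1210 ± 70.7 (n = 2). The culture difference was 1.89 on the log2 scale (SE 0.201, adjusted p = 1.3e-05).

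Between populations, Bmp1 was lowest in Kupffer cells. It was higher in hepatocytes than in Kupffer cells by 1.44 (SE 0.167, adjusted p = 6.6e-06) and higher in 1-day HSC than in Kupffer cells by 1.64 (adjusted p = 7.0e-06). The difference of 1-day HSC from hepatocytes was 0.20 (95% interval -0.21 to 0.61, adjusted p = 0.36). From LSEC it was 0.81 (95% interval 0.40 to 1.21, adjusted p = 0.0036), below the minimum difference. Hepatocytes differed from LSEC by 0.61 (adjusted p = 0.0061). Kupffer cells differed from LSEC by -0.83 (adjusted p = 8.1e-04) and, without LSEC replicate 3, by -1.08, past the minimum. That replicate read lowest of the 3 LSEC arrays for Bmp1, for Serpinh1 and for the sum of LSEC markers. Hepatocyte markers on the 1-day HSC arrays, summing to 15.9% and 8.82% of the hepatocyte mean with Alb the largest part, accompany a Bmp1 level near that of hepatocytes. Their part in the 1-day value was not tested. On the 7-day and 14-day arrays the same markers stood at 0.951% and 0.948%.

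Tll1, the gene of a second C-proteinase of the tolloid family, stood above the pooled median only on HSC arrays. It read 83.01, 88.77 and 87.84 in hepatocytes, 71.19, 77.77 and 75.61 in Kupffer cells and 98.92, 76.35 and 70.00 in LSEC, all near the pooled 20th percentile of 83. On the 1-day HSC arrays it read 268.7 and 210.1, one above and the other below the median of 224.5. It then read 1848 at day 7 and 1219 at day 14, 7.72 and 5.09 times the 1-day mean of 239.4 ± 41.4 (n = 2). The culture difference was 2.30 on the log2 scale (SE 0.156, adjusted p = 2.7e-07). Fitted without the filter on low values, the difference of 1-day HSC was 0.92 from hepatocytes, 0.97 from LSEC and 1.02 from Kupffer cells, of which the last was past the minimum (adjusted p = 5.2e-06). Tll2, which encodes the remaining mammalian tolloid, lay below the median everywhere, between 108 and 134.1.

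Pcolce, which encodes the first C-proteinase enhancer, resembled Tll1 in its course. It read 1047 and 697.7 on the 1-day HSC arrays, 4876 at day 7 and 3703 at day 14. LSEC read 320.6, 305.9 and 295.8, Kupffer cells 233.9, 246.6 and 230.8, and hepatocytes 274.1, 336.1 and 598.2. All HSC arrays lay above all others, and hepatocyte replicate 3 stood apart from the other hepatocyte arrays. The 7-day value was 5.59 times and the 14-day value 4.24 times the 1-day mean of 872.5 ± 247 (n = 2), and the culture difference was 2.21 (SE 0.248, adjusted p = 1.9e-05).

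At day 1 Pcolce was higher in HSC than in LSEC by 1.27 (SE 0.22, adjusted p = 5.1e-04) and than in Kupffer cells by 1.55 (adjusted p = 4.6e-05). It was higher than in hepatocytes by 1.01 (adjusted p = 0.0015). That last difference sat on the minimum of 1. It was 0.74 without 1-day HSC replicate 1, 0.81 without hepatocyte replicate 1, 0.93 without hepatocyte replicate 2, 0.93 after quantile normalization and 0.82 with the pooled median as pseudocount. Among the freshly sorted cells, hepatocytes and Kupffer cells differed by 0.55 (95% interval 0.12 to 0.98, adjusted p = 0.026), hepatocytes and LSEC by 0.26 (adjusted p = 0.26) and Kupffer cells and LSEC by -0.29 (adjusted p = 0.23), all below the minimum. On hepatocyte replicate 3, markers of other cells read highest of the 3 hepatocyte arrays for 8 of 9 Kupffer cell genes, 7 of 10 LSEC genes and 5 of 10 stellate cell genes, among them Dcn (830.1 against 480.8 and 543.9). Of the stellate cell genes 4 read lowest there, Des, Reln, Lhx2 and Pdgfrb. Of the 10 hepatocyte markers 5 also read highest there. Several values of the markers of other cells lay below the pooled median, such as Timd4 (140.6 against 131.6 and 122.8). The share of all genes reading highest on this array was not determined. Whether these readings bear on the Pcolce value of hepatocyte replicate 3 was not tested.

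Pcolce2, which encodes the second enhancer, was highest not in HSC but in Kupffer cells. The Kupffer cell arrays read 6016, 5994 and 4467. The 1-day HSC arrays read 854 and 793.1, day 7 read 1391 and day 14 read 1270. Hepatocytes read 136.6, 147.6 and 118.5 and LSEC 92.9, 125.2 and 110.9, all below the pooled median. The groups formed 3 separate levels with no overlap, Kupffer cells above HSC and HSC above hepatocytes and LSEC. The Kupffer cell mean of 5492 ± 888 (n = 3) was 6.67 times the 1-day HSC mean of 823.6 ± 43 (n = 2). No fold is given against hepatocytes and LSEC, where Pcolce2 was not shown to be above background.

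Pcolce2 was higher in Kupffer cells than in LSEC by 4.85 (SE 0.116, adjusted p = 3.6e-12). Hepatocytes differed from Kupffer cells by -4.67 (adjusted p = 3.9e-12) and 1-day HSC by -2.61 (adjusted p = 3.3e-09). It was higher in 1-day HSC than in LSEC by 2.24 (adjusted p = 5.0e-08) and than in hepatocytes by 2.06 (adjusted p = 3.7e-08). Hepatocytes and LSEC differed by 0.17 (95% interval -0.08 to 0.43, adjusted p = 0.2). With culture the difference was 0.64 (SE 0.141, 95% interval 0.33 to 0.95, adjusted p = 0.0026), in the direction of a rise but below the minimum of 1. The Kupffer marker sum stood at 5.44% and 7.15% of its Kupffer cell mean on the 1-day HSC arrays, 3.86% at day 7 and 5.01% at day 14. It stood at 7.76% to 8.88% on the hepatocyte arrays, where Cd68, a lysosomal gene, made up most of it (4869 to 5424). Of the 9 markers 4 read higher on all HSC arrays than on all hepatocyte arrays, and 3 read lower. The 4 higher were Adgre1 (225.8 to 662.1 on HSC arrays), Csf1r (456.5 to 841.3), Vsig4 (404.2 to 672.7) and Cd5l (203.5 to 359.4). In Kupffer cells these read 8997 to 9289, 11270 to 11990, 9619 to 12050 and 11550 to 12690. Cd5l on HSC arrays overlapped its LSEC values of 247 to 294.1. The 3 lower were Cd68, Timd4 (113.7 to 118.4 on HSC arrays, 122.8 to 140.6 in hepatocytes) and Marco (131.6 to 147.8 and 172.9 to 233.8). Clec4f, a Kupffer cell lectin gene, read 183.6 to 244.6 on HSC arrays and 158.8 to 221.8 in hepatocytes. The share of all genes that read higher or lower on all HSC arrays than on all hepatocyte arrays was not determined. The part of macrophage RNA in the Pcolce2 values of HSC was not tested.

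**Figure D2:**
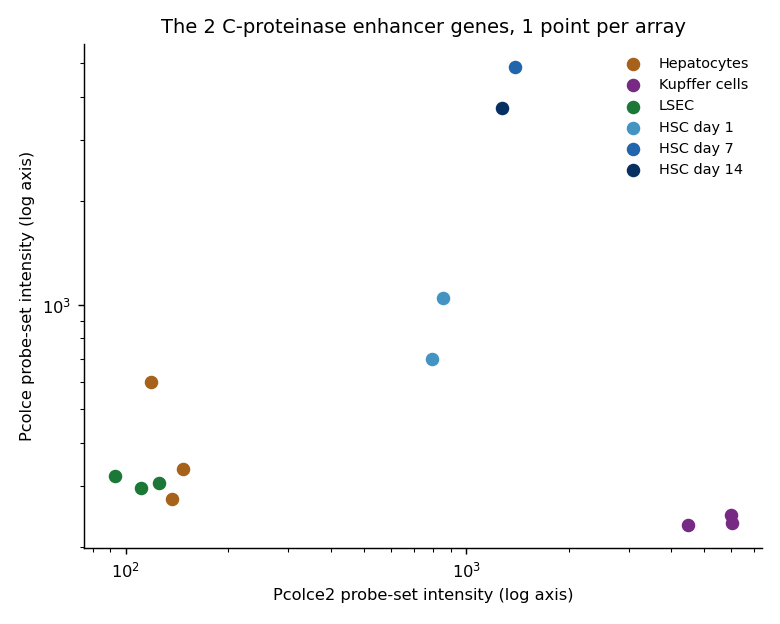
Intensity of Pcolce against Pcolce2 on log axes, 1 point per array, coloured by group. The Kupffer cell arrays lie at the right with Pcolce between 230.8 and 246.6, and the HSC arrays rise along the Pcolce axis from 697.7 to 4876 while Pcolce2 stays between 793.1 and 1391.

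The 2 enhancer genes were set against each other within each array. The log2 value of Pcolce minus that of Pcolce2 was -4.27, -4.20 and -3.86 in Kupffer cells and 0.27 and -0.17 in 1-day HSC. It was 0.70, 0.86 and 1.76 in hepatocytes and 1.20, 0.90 and 0.97 in LSEC. This difference varied across the 4 populations beyond the spread between arrays (F = 142.8, exact permutation test over 92400 assignments of the 11 arrays, p = 0.0011). The differences of each gene given above already show this, so the test adds no independent evidence. Of these arrays, Pcolce2 read above the pooled median only on those of Kupffer cells and 1-day HSC. The Kupffer cell arrays stood apart, and the ranges of the hepatocyte and LSEC arrays overlapped. At day 7 and day 14 of HSC culture it was 1.75 and 1.48, above both 1-day arrays. For the proteinase genes, Bmp1 minus Tll1 ranged over the 4 populations from 1.36 in a Kupffer cell array to 2.81 in a hepatocyte array. It was 1.24 at day 7 and 1.95 at day 14 of HSC culture. Bmp1 minus Tll1 was not tested, because Tll1 lay near the low end of the intensities in all freshly sorted cells.

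**Figure D3:**
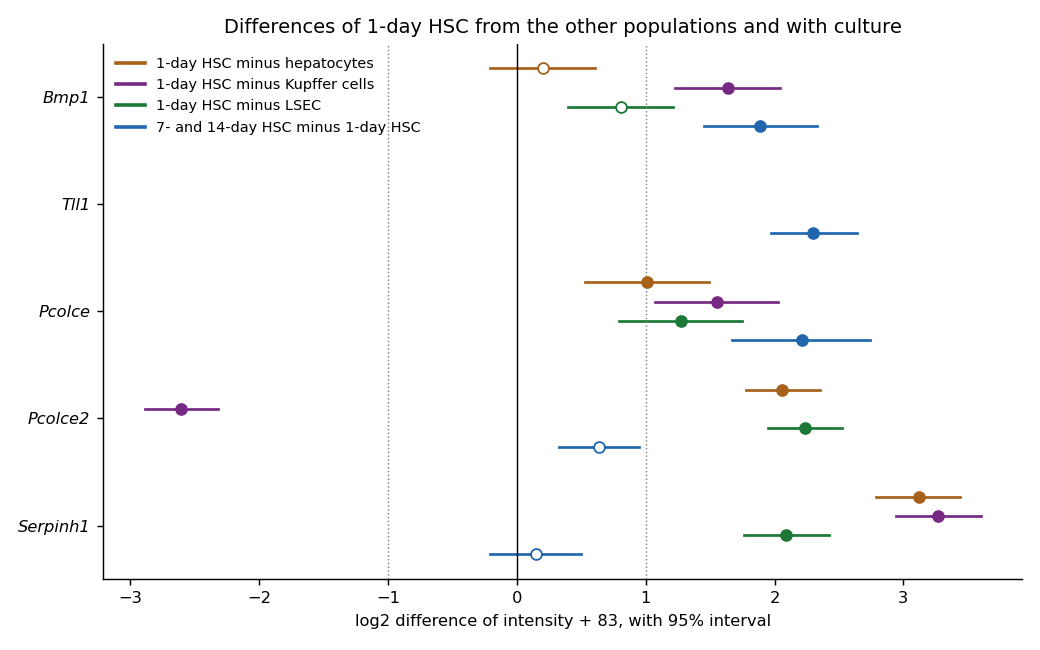
Differences in log2(intensity + 83) with 95% intervals for 1-day HSC against each other population and for 7-day and 14-day HSC together against 1-day HSC. Filled points passed both thresholds, open points did not, and dotted lines mark a difference of 1. Serpinh1 lies far to the right in the population comparisons and near 0 with culture, and Tll1 was tested with culture only.

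Counted together, 3 of the 4 genes tested were higher in 1-day HSC than in LSEC, where 5.6% of all genes tested were higher and 5.24% lower. Against hepatocytes 3 of 4 were higher (12.3% of all genes, with 10.1% lower), and against Kupffer cells 3 were higher and Pcolce2 was lower (12.9% and 11.7% of all genes). Pcolce2 entered the counts between populations only through the Kupffer cell and 1-day HSC arrays, in which it was high. Among the freshly sorted cells fewer were called. Hepatocytes had Bmp1 higher and Pcolce2 lower than Kupffer cells, where 12% of all genes were higher and 13.7% lower. They had Serpinh1 lower than LSEC, where 10% were higher and 12.5% lower. Kupffer cells had Pcolce2 higher and Serpinh1 lower than LSEC, where 9.54% were higher and 10.3% lower. With culture 3 of 5 genes rose, Bmp1, Tll1 and Pcolce, and none fell, where 5.52% of all genes rose and 4.27% fell. The median difference with culture was 1.89 over the 5 genes and -0.04 over all genes tested. Tll1 entered this fit, and so the count and the median, only through HSC arrays in which it was high. Bmp1 and Pcolce read above the pooled median on all 13 arrays. In a fit on the 4 HSC arrays alone, with 2 residual degrees of freedom, the same 3 genes rose (adjusted p = 0.0015 for Bmp1, 0.0035 for Tll1 and 0.004 for Pcolce). Marker sums of other fibroblast-like cells were higher on the same arrays, though not for every gene. Over 8 myofibroblast markers, which include Col1a1, Col1a2 and Postn, the sum was 34074 to 39736 at day 1, 65902 at day 7 and 75816 at day 14, and 6 of the 8 read higher at both later times than on both 1-day arrays. Over 8 portal fibroblast markers it was 4014 to 4596, 14869 and 19904, with 5 higher, led by the fibulin gene Fbln2 (1401 and 1480, then 8432 and 12650), and 2 lower, Dpt (727.9 and 1058, then 149.7 and 51.9) and Pi16. Over 6 vascular smooth muscle markers it was 7451 to 7490, 16097 and 14834, with 3 higher, among them Cnn1, which is also in the myofibroblast list, and 1 lower, Rgs5 (1101 and 1144, then 286.9 and 127.7). Over 5 mesothelial markers it was 882 to 921, 1711 and 2167. The part of these cells in the culture differences was not tested. No share over all genes was determined for the counts of marker genes higher or lower, so they are descriptions only.

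Against the freshly sorted cells, the long-cultured HSC stood higher for all 5 genes in comparison with hepatocytes (13.1% of all genes higher and 9.97% lower) and with LSEC (8.67% of all genes higher and 6.81% lower). The differences from LSEC ran from 2.23 for Serpinh1 (adjusted p = 6.2e-08) to 3.47 for Pcolce (adjusted p = 5.0e-08). In comparison with Kupffer cells 4 genes were higher (12.2% of all genes) and Pcolce2 was lower, with a difference of -1.97 (adjusted p = 2.3e-08, with 11.2% of all genes lower). These comparisons share the 7-day and 14-day arrays with each other and with the culture comparison. In these counts Tll1 and Pcolce2 were tested only through the groups in which they were high.

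Ordered by level, Serpinh1 ran from HSC at any time in culture through LSEC to hepatocytes and Kupffer cells, the last pair not differing beyond their spread. Bmp1 and Pcolce ran from long-cultured HSC to 1-day HSC and then to the sorted cells. For Bmp1 the neighbours 1-day HSC and hepatocytes did not differ beyond their spread, nor for Pcolce did the neighbours hepatocytes and LSEC, or LSEC and Kupffer cells. Tll1 had the order long-cultured HSC, 1-day HSC and then the sorted cells at one low level. Pcolce2 had the order Kupffer cells, long-cultured HSC, 1-day HSC, hepatocytes and LSEC, the last pair not differing beyond their spread.

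**Figure D4:**
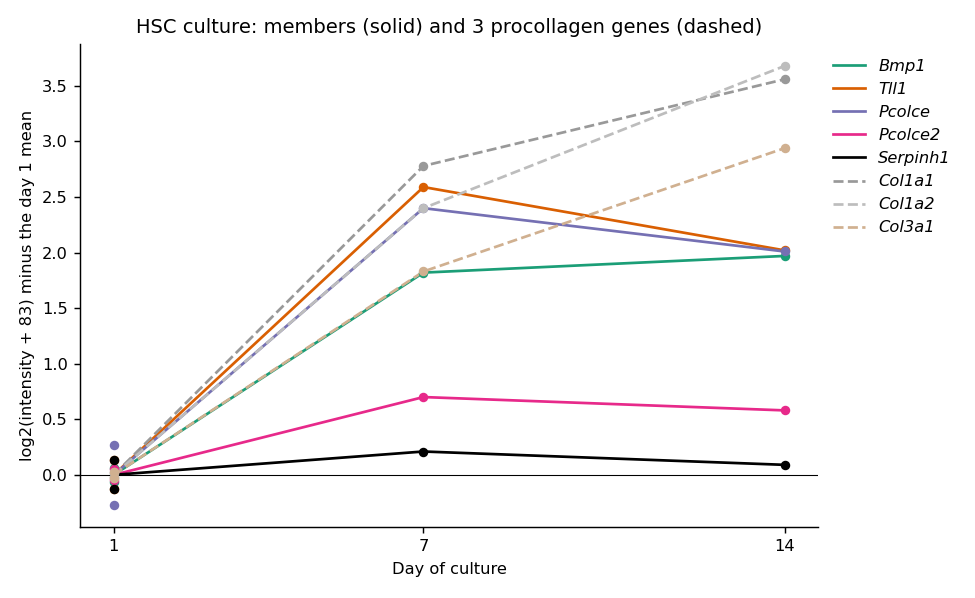
Difference in log2(intensity + 83) from the mean of the 1-day arrays at days 1, 7 and 14 of HSC culture, with points for arrays and lines through the means, solid for the 5 genes and dashed for Col1a1, Col1a2 and Col3a1. Serpinh1 stays within 0.21 of its day 1 mean, Tll1 and Pcolce reach 2.59 and 2.40 at day 7, and the procollagen genes go on to 2.94 to 3.68 at day 14.

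Days 7 and 14 had a single array each, so they were compared by value alone. None of the 5 genes differed by 1 or more on the log2 scale between them, as did 1.56% of all genes. The differences of day 14 from day 7 were 0.15 for Bmp1, -0.57 for Tll1, -0.39 for Pcolce, -0.12 for Pcolce2 and -0.12 for Serpinh1. The main procollagen substrates had larger values over the same interval. Col1a1, the type I alpha 1 chain, read 934.9 and 904.8 at day 1, 6807 at day 7 and 11780 at day 14, a difference of 0.78 between the last 2. Col1a2 differed by 1.28 and Col3a1 by 1.10. On these single arrays the processing genes stood near their day 7 level or below it at day 14, while the 3 procollagen genes stood higher. The contrast rests on these 3 chains. Of the other fibrillar chains called higher with culture, Col5a1 differed by 0.28, Col5a2 by 0.31 and Col11a1 by 0.66.

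Genes that act beside these 5 were described from lists written from textbook knowledge, with earlier results of these data known. Their counts stand beside shares over all genes of 5.52% higher with culture and 5.6% higher in 1-day HSC than in LSEC. Some listed genes read above the pooled median only on HSC arrays, among them Col5a2, Adamts14, Postn, Loxl1, Ltbp1 and P4ha3. These entered both fits through arrays in which they were high, so their calls and the counts holding them are descriptions. Of the 11 fibrillar procollagen chain genes 10 were tested with culture, and 6 rose and none fell, with a median difference of 1.17. Col1a1 rose by 3.17 (SE 0.179, adjusted p = 5.3e-08), Col1a2 by 3.04 and Col3a1 by 2.39, whereas Col5a3 at 0.29 and Col2a1 at 0.20 did not pass. At day 1, 3 of the 10 were higher in HSC than in LSEC, Col5a2 by 1.38, Col1a1 by 1.23 and Col1a2 by 1.19, while Col5a1 at 0.38 and Col3a1 at 0.35 did not pass. Serpinh1 was higher there by 2.09. The N-proteinase genes remove the other propeptide. Adamts14 was higher in 1-day HSC than in LSEC by 1.46 (adjusted p = 1.6e-07) and did not pass with culture (-0.60), and Adamts3 passed in neither (0.37 and 0.12).

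Other substrates of the tolloid proteinases include cross-linking enzymes and small proteoglycans. Of 12 on the array, 10 were tested with culture and 5 rose, with a median of 0.76. Ogn, the osteoglycin gene, rose by 3.73, from 169.5 and 151.6 on the 1-day arrays to 2949 at day 7 and 3379 at day 14. Only the last 2 values lay above the pooled median, so Ogn entered the fit through the arrays in which it was high. The latent TGF-beta binding protein gene Ltbp1 rose by 1.93 and the perlecan gene Hspg2 by 1.61, while Col7a1 at 0.33 and Gdf11 at 0.30 did not pass. Against LSEC 5 of 9 tested were higher in 1-day HSC, led by the lysyl oxidase gene Lox at 5.15, Dcn at 4.30 and Bgn at 1.70, and Hspg2 at -0.95 did not pass. Among genes that activate or modulate tolloid proteinases 3 of 6 were higher in 1-day HSC than in LSEC, Postn by 5.04, Fn1 by 3.73 and Thbs1 by 3.52. With culture 1 of the 6 rose, the fibronectin gene Fn1 by 1.23, while Twsg1 at 0.55 and the periostin gene Postn at 0.39 did not pass. Furin, whose product activates the proteinase precursors, differed from LSEC by -0.26 in 1-day HSC (adjusted p = 0.14), and the protease inhibitor gene A2m by -0.42 (adjusted p = 0.22).

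In the endoplasmic reticulum, 18 folding and modification genes were tested and 6 rose with culture, with a median of 0.61. The prolyl 4-hydroxylase genes P4ha3 and P4ha2 rose by 2.73 and 1.46 and the lysyl hydroxylase gene Plod2 by 1.71, while P3h1 at 0.98 and Plod3 at 0.87 fell short of the minimum difference. At day 1, 2 of the 18 were higher than in LSEC, Plod2 by 2.63 and the prolyl 3-hydroxylase gene P3h2 by 2.07, whereas P4ha3 at 0.99 and the chaperone gene Hspa5 at 0.83 did not pass. Of 13 genes of procollagen export and its control 2 rose with culture, the coat protein gene Sec23a by 1.25 and the retrieval receptor gene Kdelr3 by 1.20, with a median of -0.12. Creb3l1, a transcription factor gene, differed by -0.68 and Mia2 by -0.62, and neither passed. Against LSEC, Kdelr3 by 1.48 and Creb3l1 by 1.14 were higher in 1-day HSC, and Sec24d at 0.91 and Mia2 at 0.48 did not pass. Over all genes the median was -0.04 with culture and -0.03 against LSEC.

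**Figure D5:**
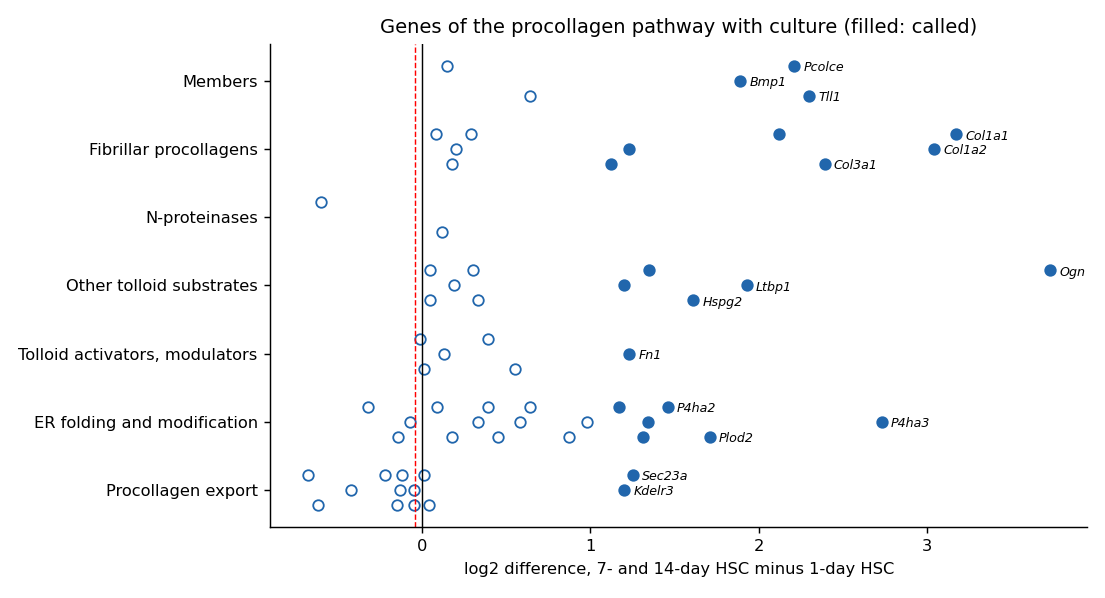
Differences in log2(intensity + 83) of 7-day and 14-day HSC together from 1-day HSC for the 5 genes and the 6 lists, 1 point per tested gene, filled where called, with a dashed line at the median of all genes (-0.04) and names for up to 3 genes a list at 1 or above. No gene shown was called lower. The largest rise is that of Ogn at 3.73, which entered the fit through the 7-day and 14-day arrays alone.

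Across the 13 arrays, Pcolce and Tll1 varied most alike of the 5 genes (Pearson r = 0.98), followed by Bmp1 and Pcolce at 0.93 and Bmp1 and Tll1 at 0.89. Serpinh1 correlated with these 3 at 0.76 to 0.82. Pcolce2 correlated with the other 4 at -0.18 to 0.20. The arrays of a group share their cell type, so these values describe the pattern over few independent points. By the same measure over all genes, Serpinh1 was most like Chst11 (0.996), Fstl1 (0.995), Thbs1 (0.993) and Tnc (0.991). Bmp1 was most like P3h1 (0.982), Kank1 (0.976), Atoh8 (0.970) and Plec (0.970). Tll1 was most like Sema3c (0.995), Thsd7a (0.994), Aldh1a2 (0.994) and Gulp1 (0.993), and Pcolce most like Tvp23a (0.986), Ddr1 (0.985), Hand2 (0.983) and Clip3 (0.979). Pcolce2 was most like Ifi30 (0.990), Lpl (0.989), Sh3bp1 (0.988) and Dipk1a (0.982).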

How the data were processed

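RNA was measured on 13 arrays, which the authors deposited as 1 table of probe-set intensity values. The values are linear and span 10.6 to 28854 for 25194 probe sets. Affymetrix Expression Console and MAS5 5.0 appear in the submitters' processing notes, but their use is not described. How signals were summarised and background-corrected, and on which genome build, is not given in the sources used here, and the table had no detection calls. A single gene symbol was paired with 21181 probe sets, of which 21097 matched RefSeq (GRCm38.p6) by Entrez identifier. The 1379 with several symbols and the 2634 without one were not used, which leaves a few genes of the lists without a value, among them Adamts2, Fkbp10 and Kdelr2.

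Each gene took its probe set with the highest mean. Tests used limma 3.58.1 in R 4.3.3, two-sided, on log2(intensity + 83), adjusted by Benjamini-Hochberg over all genes within a comparison. The logged scale understates the fold of dim genes. The populations were fitted on 11 arrays (12081 genes, 7 residual degrees of freedom). Comparisons with long culture were fitted on all 13 (12368 genes, 8 residual degrees of freedom), with the 7-day and 14-day arrays merged as replicates, so their spread came from all groups. The fits were tested on simulated data.

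The 5 genes, the lists and the thresholds were chosen with earlier results of these data known. All 5 genes are named whatever their result. From each list up to 3 called genes and up to 2 uncalled genes with the largest differences are named, with culture and against LSEC, and for each of the 5 genes the 4 with the highest Pearson correlation. Same-numbered arrays of different groups correlated in their deviations from the group means at -0.111 to 0.11. With so few arrays a group, this cannot exclude a shared animal or isolation behind a replicate number. In the main fits the replicate numbers were not treated as pairs. Alternatives were other pseudocounts, no filter, quantile normalization, the mean over probe sets, a trended prior, other sets of arrays, a replicate block and leaving out each array.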

Additional observations from a re-analysis of the deposited data

How the results depend on the processing

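For the 5 genes 44 differences were tested and recomputed under the alternatives, giving 841 values, of which 829 kept both call and direction. The sign turned in 1 value, Pcolce in hepatocytes against LSEC, which was -0.01 without hepatocyte replicate 3 against 0.26 (-0.01 to 0.45 with an array left out) and was called in neither. Calls changed in 4 differences. Serpinh1 in hepatocytes against LSEC was -0.83 with the pooled median as pseudocount and -0.92 after quantile normalization, and -1.18 to -0.90 with an array left out, so the number of the 5 genes called in that comparison was 0 under both settings and 0 to 1 with an array left out, against 1. Serpinh1 in Kupffer cells against LSEC was -0.94 with the pooled median, leaving 1 gene called against 2. Pcolce in 1-day HSC against hepatocytes was 0.82 with the pooled median, 0.93 after quantile normalization and 0.74 to 1.28 with an array left out. Bmp1 in Kupffer cells against LSEC was -1.08 to -0.66 with an array left out. The settings changed the size of differences near the minimum of 1, and the cause was not tested further. With the replicate block 1335 genes were called between 1-day HSC and LSEC against 1310, and no call of the 5 genes changed. No paired analysis was possible for the culture comparisons because the 7-day and 14-day titles carry no replicate number. The F of the enhancer pair was 90.39 to 388.1 with an array left out. Without detection calls, signal over background is unknown, which limits what the low Tll1 and Pcolce2 values show.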

Other observations

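The following genes of the lists were chosen after their values were seen, and their values are given as descriptions. Mia2, whose product belongs to the family that loads bulky cargo at endoplasmic reticulum exit sites, read 2589 to 3141 in hepatocytes and 64.17 to 205.9 on all other arrays, the highest of these being a 1-day HSC array. Tmem38b, an ion channel gene of the endoplasmic reticulum, read 826.8 to 1239 in hepatocytes, 218.8 to 370.3 in Kupffer cells, LSEC and 1-day HSC together, and 826.3 and 793 at days 7 and 14 of HSC culture. Furin read 3907 to 4983 in hepatocytes and 1474 to 2743 on all other arrays. P3h2 read 2103 and 2231 in 1-day HSC, 3500 at day 7 and 827.3 at day 14, a difference of -1.98 between the last 2 arrays, which have no replicate. Creb3l1 read 1639 to 2191 in LSEC, 4177 and 4311 in 1-day HSC, 2665 at day 7 and 2585 at day 14, and 133.8 to 229.2 in hepatocytes and Kupffer cells.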
